A study of Mus musculus with 36 samples.

Results

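The 35 genes described here were listed as motile cilia genes, and most encode proteins that build and drive motile cilia. They are listed genes out of the 39017 in the count table, all 35 were found there, and all 35 passed the filter on low counts that kept 22556 genes for testing. The list was chosen by measured values, because Gas2l2, Stmnd1, Tbata and Ccno differed between adrenalectomized and sham-operated mice in the same libraries, so every comparison of these operations below is a description of the values that led to the list. The RNA came from the cochlea, the coiled organ of hearing, of 12 weeks old mice of the strain CBA/Sca. The mice had been adrenalectomized (ADX), which removes the main source of corticosterone, or sham-operated, and both operations were sampled every 4 h from circadian time 4 (CT04) to CT24. There were 3 libraries per operation and time, 36 in all, and no other genotype or treatment is given.

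Motile cilia beat to move fluid and mucus over airway, middle ear and Eustachian tube, ependymal and oviduct epithelium. A cell that bears many of them first amplifies its centrioles under the regulators Mcidas and Ccno, and the transcription factor Foxj1, working with RFX factors, then switches on the genes of the axoneme, the microtubule core of the cilium. Dynein arms on the outer doublet microtubules make the doublets slide, and radial spokes and the central pair of microtubules control the beat. The sensory hair cells of the cochlea do not carry beating cilia when mature.

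The genes fell into 6 roles. The regulators were Foxj1, Ccno and Mcidas. Gas2l2, which links actin and microtubules and is needed for orderly ciliary beating, was grouped with Stmnd1, a stathmin domain protein, and Tbata, a protein named for thymus, brain and testis, since these 3 were on the list for their values. The dynein group had 11 genes: the heavy chains Dnah1, Dnah2, Dnah5, Dnah9, Dnah11 and Dnah12, the intermediate and light intermediate chains Dnai1, Dnai2 and Dnali1, the docking factor Ccdc114 and the assembly factor Zmynd10. The third set of axoneme genes had 7: the molecular rulers Ccdc39 and Ccdc40, the radial spoke proteins Rsph1, Rsph4a and Rsph9, the nexin-dynein link protein Drc1, and Ccdc113. Hydin, Spag16, Spag17 and Spef2 stood for the central pair, and Cfap43, Cfap44, Cfap52, Cfap126, Tekt1, Tekt2 and Tppp3 for proteins in or along the tubules.

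The genes lay on 16 chromosomes, 8 of them on chromosome 11 (GRCm38, GENCODE M21). Ccno (ENSMUSG00000042417, chr13:112987802-112990777, plus strand) and Mcidas (ENSMUSG00000074651, chr13:112993845-113000394, plus strand) were neighbours with 3067 bases between them. Foxj1 (ENSMUSG00000034227) lay at chr11:116330704-116335399 and Gas2l2 (ENSMUSG00000020686) at chr11:83421902-83429455, both on the minus strand. Stmnd1 (ENSMUSG00000063529) lay at chr13:46273721-46300115 and Tbata (ENSMUSG00000020096) at chr10:61171954-61188841, both on the plus strand. Of the 35 genes, 19 overlapped another annotated gene, 8 of them on the same strand, and since no source used here gives the strand setting of the counting, reads of such neighbours cannot be told apart with certainty.

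RFX factors bind ciliary gene promoters, so the stretches before the start sites were read for the letters GTTGCC, the basic unit of RFX sites, on both strands. RefSeq windows (GRCm38.p6, from 250 bases before to 50 after a start) were matched for 31 of the 35 genes, not for Foxj1, Tppp3, Rsph1 or Rsph4a. GTTGCC occurred in 13 of the 31 (41.9%), in 46.8% of 77 other motile cilia genes and in 14.1% of all 27025 genes with a window. The longer RFX dimer (both strands), whose ends can overlap GTTGCC, occurred in 4 of the 31 (12.9%), in 16.9% of the other cilia genes and in 2.16% of all genes. The forkhead letters TGTTTAC, searched for because Foxj1 is a forkhead factor, occurred in 1 of the 31 (3.23%), Cfap43, against 6.49% and 4.05%. These are matches of letters, not mapped binding sites. The 60-base stretches below are those with a match that overlap no annotated exon, printed along the gene's strand with the matches in capitals (GGCAAC is GTTGCC on the other strand, and in Ccno the capitals are the dimer, which begins with GTTGCC).
Spag16, plus strand, chr1:69826836-69826895: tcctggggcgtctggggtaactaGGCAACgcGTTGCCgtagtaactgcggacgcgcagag
Tekt2, minus strand, chr4:126325748-126325807: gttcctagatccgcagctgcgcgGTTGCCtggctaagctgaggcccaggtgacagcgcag
Tekt1, minus strand, chr11:72361883-72361942: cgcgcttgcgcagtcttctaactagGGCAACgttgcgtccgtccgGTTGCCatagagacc
Stmnd1, plus strand, chr13:46273660-46273719: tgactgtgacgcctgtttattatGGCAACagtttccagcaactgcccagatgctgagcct
Ccno, plus strand, chr13:112987560-112987619: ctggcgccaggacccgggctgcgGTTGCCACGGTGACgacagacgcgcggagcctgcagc
Mcidas, plus strand, chr13:112993650-112993709: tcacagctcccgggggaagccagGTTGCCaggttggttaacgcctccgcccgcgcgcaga
Cfap44, plus strand, chr16:44394647-44394706: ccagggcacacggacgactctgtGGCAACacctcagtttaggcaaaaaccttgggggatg
Spag16 and Tekt1 held matches in both orientations within one such stretch. Both centriole regulators, Ccno and Mcidas, held a match.

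Library depth was even, with total counts from 18999408 to 28995197 (sham) and from 20351081 to 28947793 (ADX). Levels are given as CPM, counts scaled to a common library size and comparable between libraries for 1 gene, and, where genes are compared, as RPKM, the same divided by the deposited gene length in kilobases. No batch is given in the labels. Libraries with tissue that a cochlear dissection can carry along stood apart: 3 ADX libraries (CT12 replicate 1, CT16 replicate 2 and CT20 replicate 3) had the highest skeletal muscle score, 3 libraries had over 1000 CPM of Ttr, the choroid plexus transcript, and 5 had over 50 CPM of the pituitary hormone gene Gh.

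Transcripts of motile cilia were present in every one of the 36 libraries. The per-length level was highest for Tppp3, a tubulin polymerization protein that other cell types also make, at a mean of 46.3 RPKM, followed by the radial spoke gene Rsph9 at 20.32 RPKM. Foxj1 stood at 9.38 RPKM, the intermediate chain gene Dnai1 at 8.42 RPKM, the highest of the dynein genes, and the heavy chain gene Dnah1 at 0.973 RPKM, the lowest of them. Among the central pair genes the levels ran from 1.33 RPKM for Hydin to 2.93 RPKM for Spag16. Ccdc113 was lowest in its set at 1.83 RPKM and Tekt2 lowest among the tubule proteins at 4.04 RPKM. Gas2l2 stood at 0.565 RPKM and Tbata at 3.48 RPKM. Mcidas was the lowest of the 35 at 0.125 RPKM, with 1 to 16 counts per library, so that its fold changes carry large errors.

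The cochlear label was set against markers of the cells such a sample could hold. The hair cell genes, 14 tested, summed to 324 to 481 CPM over the sham libraries and to 350.5 to 443 CPM over the ADX libraries. Pvalb, with 81.2 to 137.5 CPM of these sums, was also on the skeletal muscle list. Of the other hair cell genes, Ocm had at least 18.6 CPM, Pou4f3 5.37 CPM and Slc26a5 1.97 CPM in every library, while Atoh1 fell to 0.0346 CPM. Transcripts of sensory cells were thus present throughout. Bpifa1, a secreted protein of upper airway and middle ear epithelium, ranged from 1323 to 3706 CPM, with a median of 2545 CPM, and was present in every library. Of the 20 genes listed for such a secretory epithelium 18 were tested. Bpifa1 was accompanied in their sum by Ltf (586.9 to 1414 CPM) and Lyz2 (939.5 to 2144 CPM), which neutrophils and macrophages also make, and by the detoxifying genes Cyp2f2 (a median of 166 CPM) and Aldh1a1 (161 CPM). The mucin gene Muc4 and the basal cell keratin gene Krt5 did not exceed 12.17 and 9.19 CPM. Sham CT16 replicate 3, one of the 5 libraries of high Gh, stood apart with 599 CPM of Bpifb1 and 43.1 CPM of the mucin gene Muc5b, whose medians over libraries were 0.198 and 1.56 CPM. Its sum of the 35 cilia genes was 402.6 CPM. Where in the dissected tissue the ciliary transcripts came from was not measured. In bulk libraries, fewer ciliated cells and less RNA per ciliated cell cannot be told apart.

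The level of the whole list moved from library to library. The summed level of the 35 genes ran from 244.2 CPM in sham CT20 replicate 2, in which 0 of the 35 lay above their own mean over libraries, to 673 CPM in ADX CT04 replicate 1, in which 34 did. The 3 sham libraries of CT20 lay between 244.2 and 373.7 CPM and the 3 ADX libraries of CT20 between 517.5 and 615.7 CPM, without overlap. Replicates of one group could lie far apart: ADX CT08 held libraries at 282.7, 404.5 and 574.9 CPM, and sham CT08 held 563.2, 312.4 and 462.2 CPM. In sham CT08 replicate 1, 35 of the 35 genes lay above their own mean, and in replicate 2 of the same group 2 did.

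**Figure D1:**
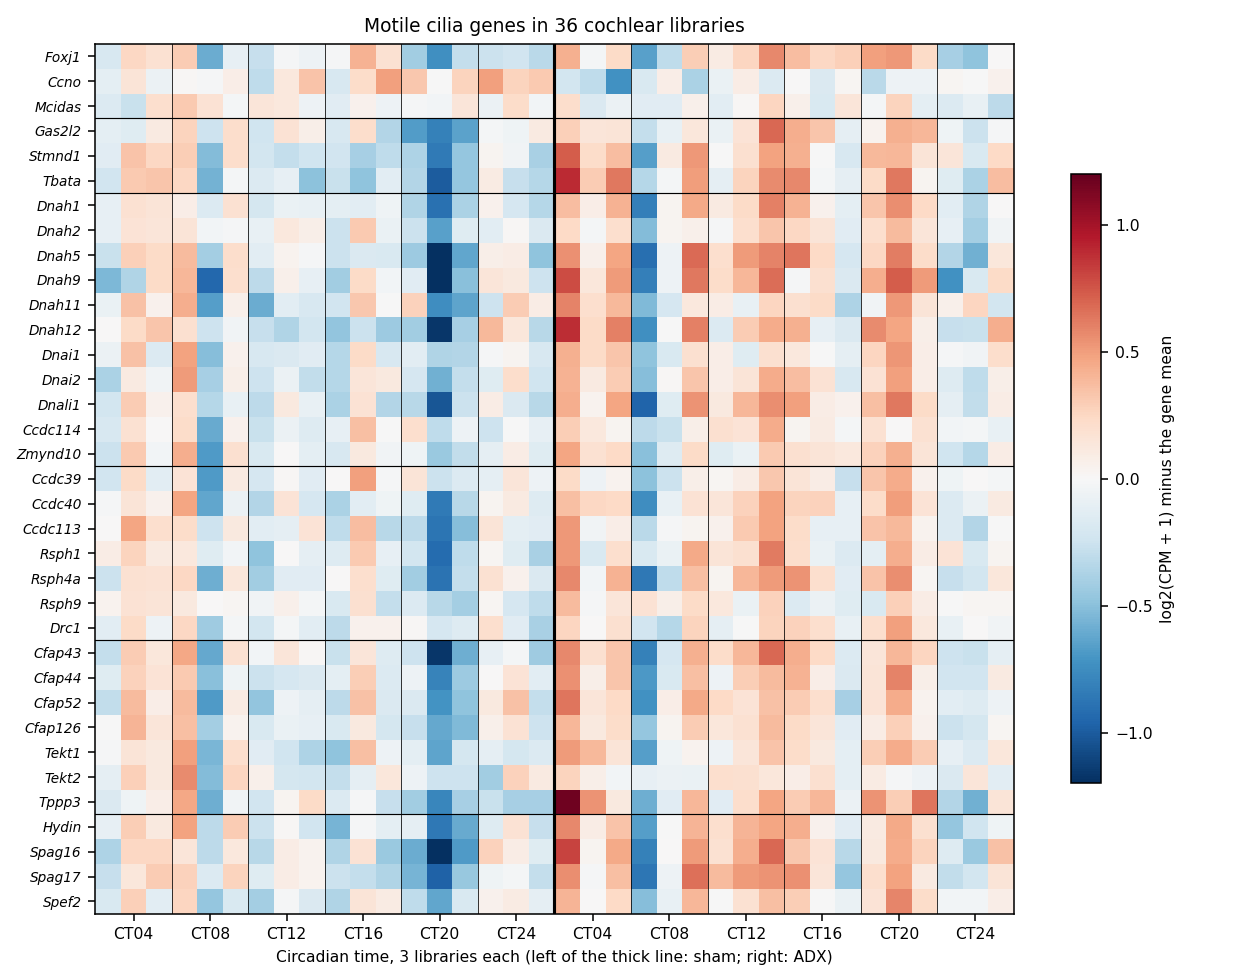
Each row is a gene, grouped by role, and each column a library, grouped by circadian time with sham left and ADX right of the thick line. Colour is log2(CPM + 1) minus the gene's mean over the 36 libraries. Whole columns shift together. The lowest are sham CT20 replicate 2 (244.2 CPM in sum) and ADX CT08 replicate 1 (282.7 CPM in sum), and the highest is ADX CT04 replicate 1 (673 CPM in sum). The row of Ccno runs apart from the others.

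Replicate scatter of these genes was wide and largely common to them. Their biological coefficient of variation, the spread between replicates beyond counting error, had a median of 0.191, from 0.0965 for Rsph9 to 0.323 for Mcidas, against 0.0826 over all tested genes, at similar median levels (9.92 and 12.6 CPM). After the mean of its group was taken from each library, the 595 pairs of genes had a median Pearson r of 0.73 over the 36 libraries, and 593 pairs had r above 0. The libraries of all pairs are the same, so the pairs are not independent. Of the 35 genes, 31 had r above 0.7 with the mean of the other 34. Cfap43, which tethers dynein on the doublets, followed the list most closely (r = 0.97), and Foxj1 reached 0.92. The regulators Ccno (0.18) and Mcidas (0.35), the tektin gene Tekt2 (0.41) and Rsph9 (0.47) followed it least. Mcidas had only 1 to 16 counts per library, so its low r cannot be told from counting noise. For the 22521 tested genes outside the list the median r with the list's mean was -0.02.

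**Figure D2:**
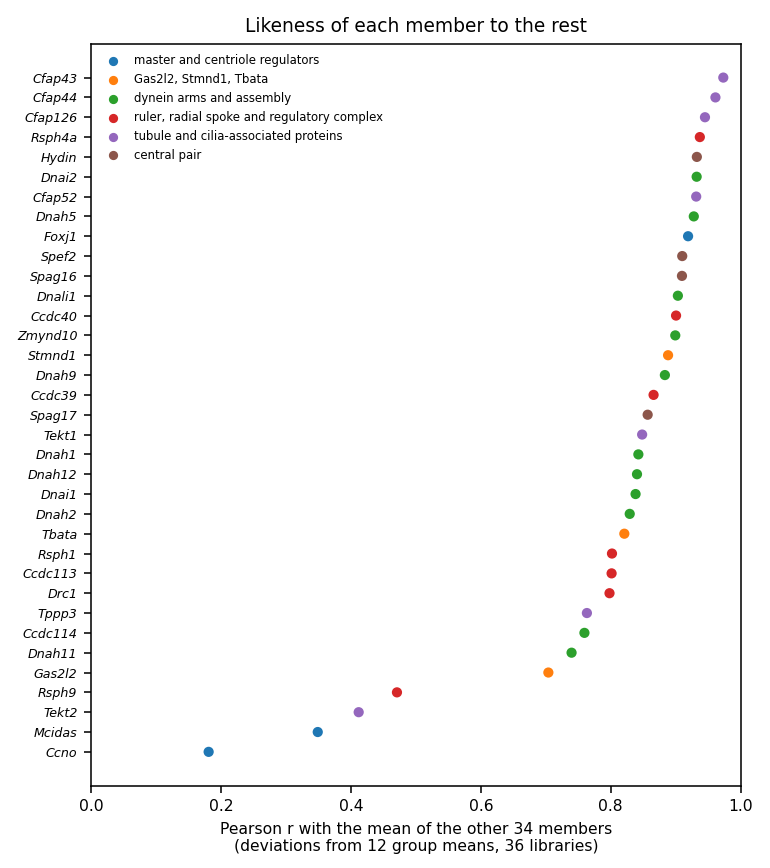
Points give each gene's Pearson r with the mean of the other 34, computed on log2(CPM + 1) as deviations from the 12 group means over 36 libraries, coloured by role. Cfap43 stands at the top (0.97), and Rsph9, Tekt2, Mcidas and Ccno lie below the rest.

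Genes outside the list that shared this library-to-library pattern were mostly ciliary. Of the 15 most alike, 11 were in a list of 100 other motile cilia genes: Cfap65 (r = 0.98), the dynein heavy chain gene Dnah6 (0.97), Vwa3a (0.95), Wdr66 (0.94), Fam183b, Cfap157, Dnaaf3, Wdr63, Cfap70, Iqcg and Spag6l (0.93 each). Armc3 (0.96), Eno4 (0.95), 2410004P03Rik (0.93) and Maats1 (0.93) were the other 4. Absence from that list does not show that a gene is not ciliary. Over all of the outside genes, 45 had r above 0.9, and 26 of these were among the 99 tested genes of the other cilia list, whose median r was 0.82.

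Foxj1 was set against single genes of 7 neighbouring cell types, on log2(CPM + 1). Foxj1 ranged in sham from 13.99 to 32.3 CPM with a median of 21.5 CPM, and in ADX from 14.8 to 36.1 CPM with a median of 28.4 CPM. With Bpifa1, over 36 libraries, Pearson r was 0.46 (two-sided permutation p = 0.004, adjusted over the 7 relations 0.028) and Spearman rho 0.38 (p = 0.0235, adjusted 0.16). Without sham CT20 replicate 2 and ADX CT24 replicate 1, the libraries farthest from the median of Bpifa1, r was 0.32. Within sham r was 0.59 (permutation p = 0.0096, adjusted 0.0386), while rho was 0.51 (permutation p = 0.032, adjusted 0.13) and did not pass. Without the 2 libraries of this kind, sham CT20 replicate 2 and sham CT12 replicate 1, r in sham was 0.40. Within ADX r was 0.42 (permutation p = 0.0788, adjusted 0.18) and -0.03 without ADX CT24 replicate 1 and ADX CT08 replicate 1, so there the relation rested on those libraries. As deviations from the group means, r with Bpifa1 was 0.57.

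The other relations of Foxj1 did not pass the threshold over the 36 libraries. Alas2, of red cell precursors, had r = -0.37 and rho = -0.33 (permutation p = 0.0266 and 0.0459, adjusted 0.0721 and 0.16), and Ckm of skeletal muscle r = 0.23 and rho = 0.20 (p = 0.174 and 0.232). For the B cell gene Cd79a r was 0.09 and rho 0.15 (permutation p = 0.587 and 0.39). The hair cell gene Myo7a had r = 0.18 and rho = 0.06 (permutation p = 0.309 and 0.747). Within sham, Myo7a had r = 0.58 (permutation p = 0.011, adjusted 0.0386), while rho was 0.49 (permutation p = 0.038, adjusted 0.13) and did not pass. Without sham CT16 replicates 2 and 3 its r in sham was 0.33. Within ADX, Myo7a had r = -0.12 and rho = -0.10 (permutation p = 0.641 and 0.693). Ttr and Gh were high in separate clusters of libraries, on which their pooled values largely rest. Over 36 libraries Ttr had r = 0.35 and rho = 0.19 (permutation p = 0.0309 and 0.257, adjusted 0.0721 and 0.36). Gh had r = -0.21 and rho = -0.245 (permutation p = 0.221 and 0.151). Each library over 1000 CPM of Ttr had the highest summed cilia level of its group. These were ADX CT12 replicate 3 (622.6 CPM), sham CT04 replicate 2 (513 CPM) and sham CT16 replicate 2 (488.1 CPM). The part of choroid plexus or ependyma in these sums was not tested. In the 33 libraries with at most 1000 CPM of Ttr its r with Foxj1 was 0.03 and rho 0.01 (permutation p = 0.857 and 0.943), and in the 31 with at most 50 CPM of Gh r was -0.02 and rho -0.06 (permutation p = 0.9 and 0.763).

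**Figure D3:**
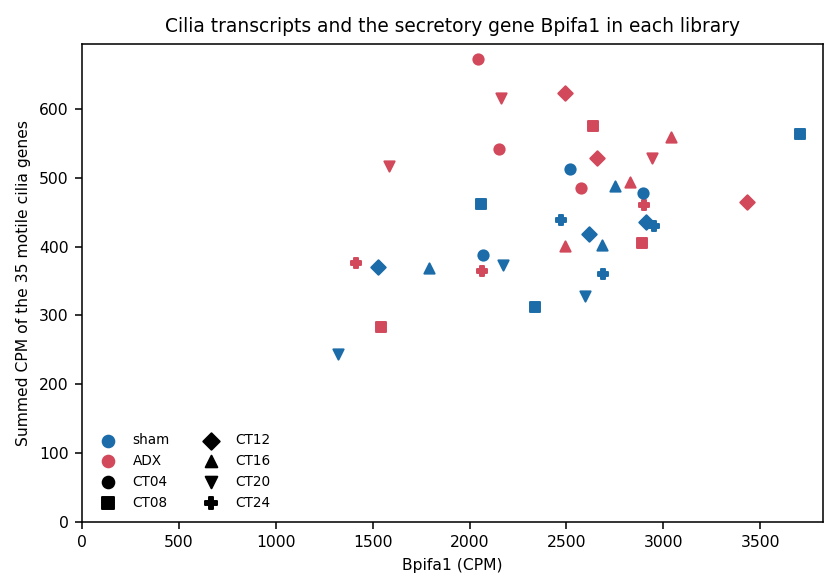
Each point is a library, with Bpifa1 in CPM on the horizontal axis and the summed CPM of the 35 motile cilia genes on the vertical axis; colour gives the operation and shape the circadian time. Sham CT20 replicate 2 is lowest on both axes (1323 and 244.2 CPM), and the 3 ADX libraries of CT20 lie at 517.5 CPM or more over Bpifa1 levels from 1584 to 2940 CPM.

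Whether the motile cilia genes followed the circadian cycle in both operations together was tested apart from the difference between the operations, since each time was sampled equally in both. Tests within sham alone share the sham libraries, those of CT20 included, with that difference. A cosine curve of 24 h common to sham and ADX was tested for each gene with edgeR's quasi-likelihood test and Benjamini-Hochberg adjustment over all 22556 genes. It passed for 1 of the 35 genes (2.86%), against 32.9% of all tested genes. By DESeq2 it also passed for 1 (33.9% of all genes), and 2 of the 35 had an unadjusted edgeR p under 0.05 (43.7% of all genes). In the list of other motile cilia genes 7 of 99 (7.07%) passed, and 16 of 16 core clock genes did.

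The gene that passed was Rsph9 (ENSMUSG00000023966, chr17:46122035-46144216, minus strand), which encodes a protein of the radial spoke head. Its levels in sham ran from 10.09 to 15.8 CPM with a median of 13.6 CPM, and in ADX from 11.97 to 18.2 CPM with a median of 14.2 CPM. In sham its mean fell from 15.01 ± 0.79 CPM (SD, n = 3) at CT04 to 10.97 ± 1.05 CPM at CT20, whose 3 libraries (10.09, 10.7 and 12.13 CPM) did not overlap the 3 of CT04 (14.1, 15.4 and 15.5 CPM). CT04 and CT20 were the sham times of highest and lowest mean for Rsph9, and how many of all genes separate between them was not counted. In ADX the means were 15.7 ± 2.35 CPM at CT04 and 12.5 ± 0.47 CPM at CT16. The fitted curve of both operations ran 0.30 ± 0.07 (SE) from peak to trough on the log2 scale, with its peak at 7.0 h (adjusted p = 0.0066). It passed with each of the 36 libraries left out in turn. Rsph9 overlaps Mrps18a on the other strand, and the part of Mrps18a reads in this curve was not tested.

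Next in order of p were Dnah12, an inner arm dynein heavy chain (0.48 ± 0.18 from peak to trough, adjusted p = 0.0819), Stmnd1 (0.45 ± 0.18, adjusted p = 0.12) and Spag17 of the central pair (0.46 ± 0.19, adjusted p = 0.14). The fitted peak-to-trough value of the 35 had a median of 0.22, against 0.18 over all genes, with a median standard error of 0.15 against 0.0767. Such a value cannot lie below 0 and grows with scatter, so these medians do not by themselves show a daily change. Curves of this size could not be told from replicate scatter for most of the list. Among the other cilia genes, Spag1, a dynein assembly factor, had the smallest p (0.40 ± 0.07, peak at 19.29 h, adjusted p = 1.2e-04). Dnah7b (0.52 ± 0.11, peak at 7.36 h), Cfap54 (0.43 ± 0.09, 8.63 h) and Tmem212 (0.89 ± 0.21, 6.72 h) followed with adjusted p of 0.0019, 0.0023 and 0.004.

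In sham alone the 24 h curve passed for 2 of the 35 genes (5.71%), against 16.08% of all genes, and by DESeq2 for 4 (18.4%). The 2 were Rsph9 (0.38 ± 0.10 from peak to trough, peak at 7.69 h, adjusted p = 0.0307) and Stmnd1 (0.85 ± 0.25, peak at 5.71 h, adjusted p = 0.0468). Stmnd1 in sham had a mean of 3.50 ± 0.75 CPM (SD, n = 3) at CT04 and of 1.74 ± 0.46 CPM at CT20, with libraries of 2.65, 3.77 and 4.08 CPM against 1.22, 1.90 and 2.09 CPM. These groups did not overlap, but they were the sham times of highest and lowest mean. How many of all genes separate between them was not counted. Stmnd1 was listed for its difference from ADX, to which the same sham libraries contribute, so its curve in sham is given as a description. Both calls were close to the threshold: Rsph9 passed in 28 and Stmnd1 in 12 of 36 fits, each without 1 library, and neither passed without the filter on low counts (adjusted p = 0.0523 and 0.0691).

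In ADX alone the curve passed for 0 of the 35 (9.4% of all genes), and by DESeq2 for 0 (11.6%), with 0 of the 35 at an unadjusted p under 0.05 in edgeR (25.4% of all genes) and in DESeq2 (25.24%). The test of the difference in rhythm between sham and ADX passed for 0 of the 35 and 0 of all genes, and by DESeq2 for 0 of the 35 (0.00443% of all genes). With 1 of the 35 at an unadjusted p under 0.05 in both edgeR (3.57% of all genes) and DESeq2 (3.31%), the operations are not shown to differ in rhythm. The fitted peak in sham lay between 4 and 10 h for 30 of the 35 genes, against 30.1% of all genes, and in ADX for 4 of the 35, against 28.8%. Since the genes of a library moved together and most curves did not pass, these peaks describe a shared course and not 35 separate ones. A test that lets the 6 times differ in any way passed for 2 of the 35 in sham (16.19% of all genes), Gas2l2 (adjusted p = 0.0078) and Ccdc113 (0.0493), for 0 in ADX (9.68% of all genes, with 2 of the 35 and 25.6% of all genes at an unadjusted p under 0.05), and for 0 as an interaction of operation and time (0 of all genes, with 11 of the 35 and 4.83% of all genes at an unadjusted p under 0.05). Gas2l2 was listed partly for its value at CT20, which enters this test.

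**Figure D4:**
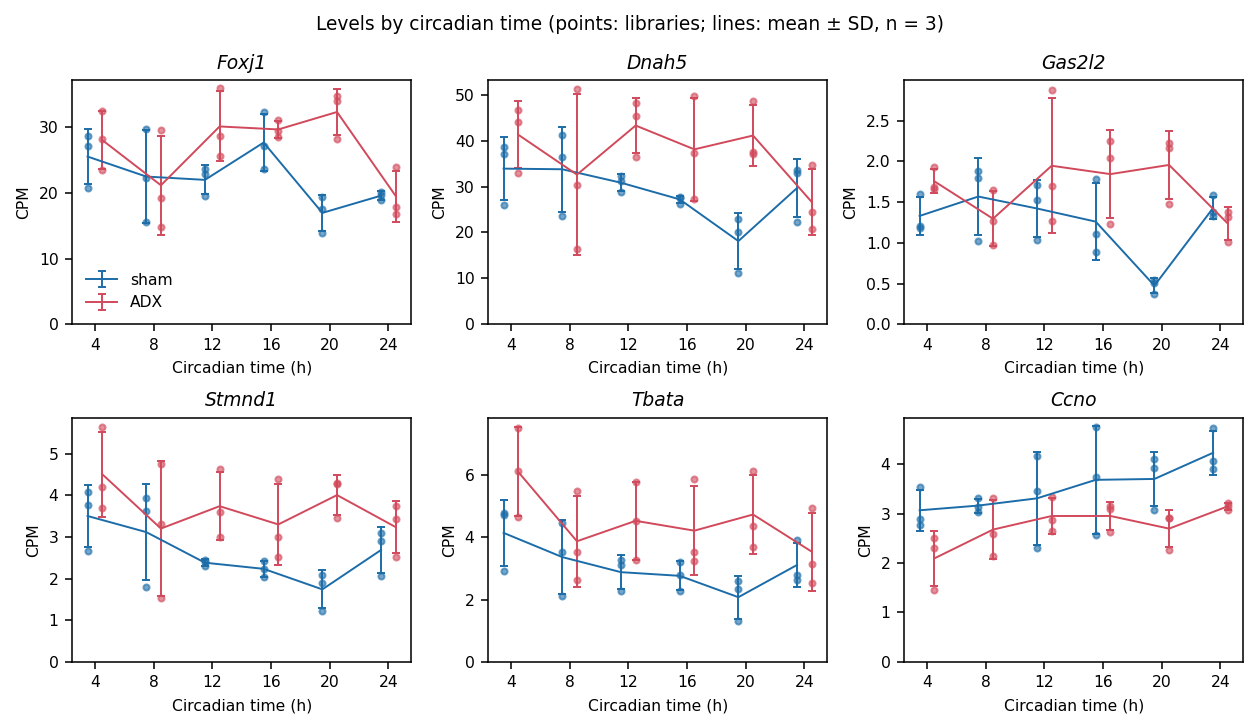
CPM of 6 genes by circadian time, with points for libraries and lines for the mean ± SD of 3 libraries, in sham (blue) and ADX (red). The sham means of Foxj1, Dnah5, Gas2l2, Stmnd1 and Tbata are lowest at CT20, where their ADX libraries lie above the sham libraries, while the ADX means of Ccno lie below the sham means at all 6 times.

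The comparison of ADX with sham is given as values, since it led to the list. Over the mean of the 6 times 3 of the 35 genes passed the threshold of 0.05 in edgeR's quasi-likelihood test, 2 higher and 1 lower in ADX. Over all genes 0.346% were called higher and 0.372% lower (0.718% in all), and nothing is read from these shares. The median log2 fold change of the 35 was 0.25, with 33 above 0, while the median of all tested genes was 0.00 with 50.7% above 0. Among the 99 other cilia genes the median was 0.21 and 90 were above 0. Of the other cilia genes, Sntn (0.47 ± 0.11) and Cfap100 (0.26) were called. The other genes at the ends of that list were Ccdc78 (0.46 ± 0.13), Gmnc (-0.71 ± 0.62) and Mns1 (-0.10 ± 0.06).

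Beside these values over the mean of the 6 times, markers of blood-forming tissue had the following ones. The B lymphocyte genes, 8 tested, had a median log2 fold change of 0.31 with 8 above 0, and Ighm, the immunoglobulin M heavy chain gene, was called (0.33, adjusted p = 0.0489 by edgeR). Their summed level was 832.7 to 1704 CPM over the sham libraries, with a median of 1431 CPM, and 1264 to 2427 CPM over the ADX libraries, with a median of 1682 CPM, so the ranges overlapped. The red cell genes, 9 tested, had a median of -0.17 with 9 below 0 and 0 called, and summed to 18100 to 31580 CPM over the sham libraries and to 13110 to 26470 CPM over the ADX libraries. At CT20 the medians were 0.27 and -0.14, with 8 of 8 above 0 and 9 of 9 below 0. None of these genes was at 0 in every library, and their part in the difference of the cilia genes was not tested.

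Tbata averaged 3.06 ± 0.94 CPM (SD, n = 18) in sham and 4.50 ± 1.42 CPM in ADX, a log2 fold change of 0.57 ± 0.13 (SE, adjusted p = 0.0412). Stmnd1 averaged 2.61 ± 0.80 CPM in sham and 3.66 ± 0.97 CPM in ADX, a log2 fold change of 0.51 ± 0.12 (adjusted p = 0.0432). These were the 2 genes of the 35 whose fold change was above 0 at all 6 times. Ccno, the cyclin needed for centriole amplification, went the other way, with 3.53 ± 0.70 CPM in sham and 2.75 ± 0.49 CPM in ADX, a log2 fold change of -0.36 ± 0.09 (adjusted p = 0.0429), and was the 1 gene below 0 at all 6 times. The ranges of each of these genes overlapped between the operations over 18 libraries each. Just inside the threshold stood Stmnd1 and just outside it Gas2l2, with 0.49 ± 0.12 and an adjusted p of 0.0509. Foxj1 averaged 22.4 ± 5.003 CPM in sham and 26.8 ± 6.31 CPM in ADX, with 0.25 ± 0.08 (adjusted p = 0.12), and Mcidas 0.320 ± 0.139 and 0.270 ± 0.149 CPM, with -0.28 ± 0.24. All 3 calls were lost without the 5 libraries of high Gh, without the 3 of high Ttr, or without the libraries of CT20 (0 of 35 each).

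The fitted difference between the operations was uneven over the 6 times. At CT20 the median log2 fold change of the 35 was 0.79 and 34 were above 0, with 49.7% of all genes above 0. At CT12 it was 0.45 with 33 above 0, at CT04 0.28 with 32, at CT16 0.18 with 29, at CT24 -0.04 with 12 and at CT08 -0.10 with 8. For 31 of the 35 genes CT20 held the highest of the 6 values. The other cilia genes gave medians of 0.71 at CT20 and 0.41 at CT12, and -0.09 and -0.04 at CT08 and CT24. As stated above, the interaction test passed for none of these genes, so differences between these times are a description.

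**Figure D5:**
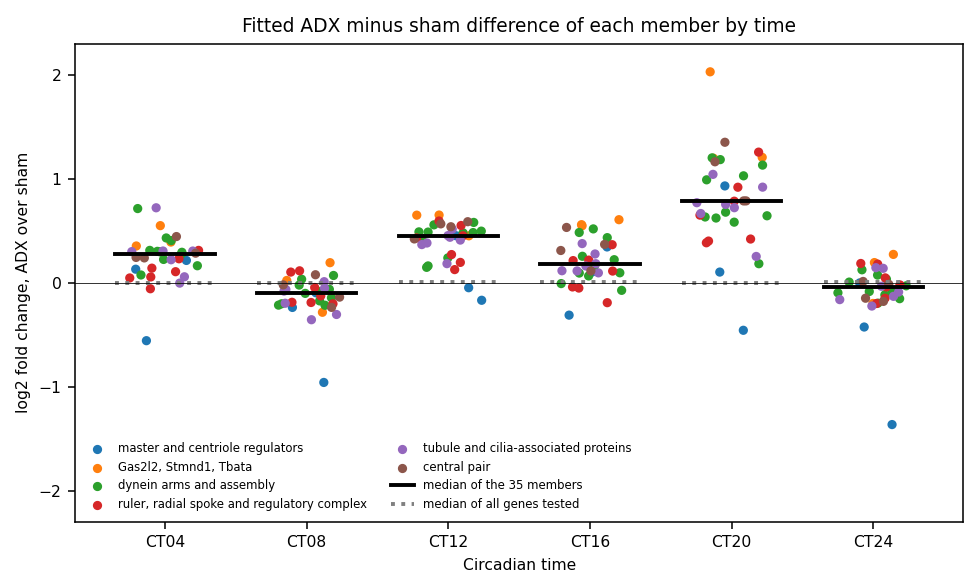
Points are the fitted log2 fold changes of the 35 genes, ADX over sham, at each circadian time, coloured by role; black bars are their medians and dotted bars the medians of all tested genes. The bar stands at 0.79 at CT20, 0.45 at CT12 and near 0 at CT08 and CT24, with Gas2l2 at 2.03 at CT20.

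All 3 ADX libraries lay above all 3 sham libraries of CT20 for 29 of the 35 genes, where 5.12% of all genes did so, and below them for 1, Ccno (4.13% of all genes). At CT12 this held for 22 higher (5.09%) and 0 lower (5.34%), and at CT04 for 4 (8.07%) and 1 (8.46%). At CT16 it held for 4 (7.1%) and 0 (6.49%). At CT08 it held for 0 (4.45%) and 0 (3.93%), and at CT24 for 0 (6.03%) and 2 (6.01%). These genes were listed for their difference in the same libraries and moved together within libraries, so the counts are not 35 separate observations.

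The highest fold change of CT20 was that of Gas2l2, with 0.514, 0.370 and 0.544 CPM in the sham libraries and 1.47, 2.23 and 2.17 CPM in the ADX libraries. The groups did not overlap, and the log2 fold change was 2.03 ± 0.33 (SE, n = 3 per group, adjusted p = 0.0218 by edgeR's quasi-likelihood test). It was the 1 call at CT20 among all genes (0.00443%), in a gene with 10 to 65 counts per library. It was lost without ADX CT20 replicate 2 or 3, without sham CT20 replicate 2 or 3, and without the 3 muscle-high libraries. By DESeq2 15 of the 35 were called at CT20, all higher in ADX, where 0.55% of all genes were called higher. By edgeR 32 of the 35 had an unadjusted p under 0.05 there, with 7.49% of all genes. At CT04, CT08, CT12, CT16 and CT24 neither tool called any of the 35. Of all genes edgeR called 0.0% at each of these times, and DESeq2 0.35, 0.0, 0.0399, 0.0887 and 0.0%. At an unadjusted edgeR p under 0.05 stood 3, 0, 9, 0 and 2 of the 35, with 9.3, 4.28, 5.41, 7.95 and 5.74% of all genes. DESeq2 gave an adjusted p to 10 of the 35 at CT12 and to 5 at CT16.

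The second highest value at CT20 was that of Spag16 of the central pair, with 3.28, 1.78 and 3.03 CPM in sham and 6.04, 7.78 and 6.78 CPM in ADX (1.35 ± 0.33). All 4 central pair genes were without overlap and higher in ADX, where 5.12% of all genes were, with a median of 0.98. Stmnd1 had 2.09, 1.22 and 1.90 CPM in sham and 4.27, 4.29 and 3.46 CPM in ADX (1.21 ± 0.31), and Tbata 2.61, 1.30 and 2.33 against 4.38, 6.14 and 3.69 CPM (1.199 ± 0.33). In these 3 genes sham CT20 replicate 2 was the lowest library of the 6.

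Of the 11 dynein genes 9 were higher without overlap at CT20, where 5.12% of all genes were, and the median log2 fold change was 0.68. Since the genes moved together within libraries, the counts by role are not separate observations. Dnah5, an outer arm heavy chain, had 23.03, 11.29 and 20.07 CPM in sham and 37.6, 48.7 and 37.0 CPM in ADX (1.19 ± 0.30). Ccdc114, of the outer arm docking complex, was lowest among them at 0.18 ± 0.17. Of the 7 ruler, spoke and link genes 5 were without overlap, with a median of 0.65 and values from 0.39 for Ccdc39 to 1.26 for Ccdc113. All 7 tubule genes were without overlap, from 0.25 for Tekt2 to 1.04 for Tppp3, which had 35.5, 27.4 and 36.1 CPM in sham and 70.2, 58.8 and 75.2 CPM in ADX.

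The regulators were uneven at CT20. Foxj1 had 17.6, 13.99 and 19.4 CPM in sham and 34.01, 34.7 and 28.3 CPM in ADX, without overlap (0.93 ± 0.21). Ccno had 4.11, 3.07 and 3.92 CPM in sham and 2.27, 2.92 and 2.91 CPM in ADX (-0.46 ± 0.21), the lowest fold change of the 35. It was the 1 gene of the 35 whose ADX libraries all lay below the sham libraries at CT20. Mcidas had 0.277, 0.259 and 0.427 CPM in sham and 0.264, 0.549 and 0.185 CPM in ADX, which overlapped (0.10 ± 0.54). Ccno and Mcidas were also the regulators with the lowest likeness to the rest of the list, as given above with the limit of low counts for Mcidas.

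Beside these values at CT20, markers of other cells had the following ones, and none of the markers passed the test there. Of the 18 tested secretory epithelium genes 16 had a log2 fold change above 0 there, with a median of 0.65. Among them were the lipid-binding protein gene Sec14l3 (1.49), the antimicrobial lectin gene Reg3g (1.85) and the mucin gene Muc4 (1.03). The more abundant Cyp2f2 and Aldh1a1 were at 0.42 and 0.14. The 2 genes below 0 were Ltf (-0.10) and Lyz2 (-0.19), which are abundant too. Bpifa1 itself was at 0.13, and the sum of the list, carried by Bpifa1, Ltf and Lyz2, lay between 3780 and 5916 CPM for sham CT20 and between 4337 and 5492 CPM for ADX CT20. The skeletal muscle genes had a median of 4.08 at CT20, carried by ADX CT20 replicate 3 (a sum of 1013 CPM against 117 to 150 CPM in the other 5 libraries), and the median of the cilia genes at CT20 was 0.85 without the 3 muscle-high libraries. The hair cell genes had a median of -0.02 and sums of 351.7 to 398.8 CPM in sham and 386.1 to 407.4 CPM in ADX. The choroid plexus and ependyma genes, 11 tested, had a median of -0.11 with 4 above 0. They summed to 130.5 to 141 CPM in sham and to 129.2 to 222.2 CPM in ADX, highest in ADX CT20 replicate 1. The 5 genes listed for the vestibular organ had a median of 0.07 with 4 above 0. Their sums were 220.9 to 394 CPM in sham and 275 to 326.6 CPM in ADX. No defining marker of these lists that was tested was at 0 in every library. The part of these cells in the difference of the cilia genes was not tested.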

How the data were processed

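Cochlear RNA was made into stranded messenger RNA libraries and sequenced in pools of 6, per the labels' protocols; the make-up of the pools is not stated. STAR 2.4.0i and the build mm10 are named in the submitters' processing notes; no source used here gives the counting program, the annotation or the strand setting. The authors deposited 1 table of raw whole-number counts, without normalization, by Ensembl ID, with a gene length per the file headers that is not always whole (it was whole for 16 of the 35 genes, and what it averages is not stated). Column names were 1 h earlier than the labels for 30 of 36 columns, and the labelled times were used. Symbols came from GENCODE M21 (37607 IDs, 96.4%, matched), Dnai1 and Dnai2 standing there as Dnaic1 and Dnaic2. Promoter windows came from RefSeq.

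These counts were fitted with edgeR 4.0.16 under R 4.3.3 (TMM, filterByExpr, quasi-likelihood tests), in a model of 12 group means with 24 residual degrees of freedom and in models with a 24 h cosine and sine, per operation and shared. The 16461 genes left out by the filter held 0.0779% of counts. P-values were adjusted by the Benjamini-Hochberg method over 22556 genes with a threshold of 0.05. CPM and RPKM were computed here. Correlations used 100000 permutations. The tests were tested on simulated data with known changes.

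The 35 genes, the other lists, the tests and the rule for named genes were chosen with earlier results of these data known. The rule named the 4 genes that led to the list, Foxj1 and Mcidas, the highest and lowest RPKM per role, the 4 genes with the strongest evidence of a shared rhythm, the 2 highest and 2 lowest fold changes at CT20, and, of the other cilia genes, the 4 smallest p of a rhythm and the 2 highest and 2 lowest fold changes. Other genes were named as examples after their values were seen. Alternatives were DESeq2 1.42.0, RLE scaling, no filter, a mean of at least 1 CPM, the replicate block, a test of any difference between times, each library left out, and libraries of high muscle or Gh left out. Leaving out libraries of high Ttr and those of CT20 was added after seeing the data. Replicates differed by more than counting noise (5.49 to 22.7 chi-square units per degree of freedom), so none was counted as a duplicate. The labels do not say that libraries came from separate animals, so p-values reflect only the scatter of these samples, which may be technical.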

Additional observations from a re-analysis of the deposited data

How the results depend on the processing

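The relation of Foxj1 with Bpifa1 within ADX (r = 0.42) had r = -0.031 without the 2 libraries farthest in Bpifa1, ADX CT24 replicate 1 and ADX CT08 replicate 1. No other result taken through the alternatives above changed its direction. The other relations of Foxj1 were not taken through all of them, and some changed sign. Myo7a within ADX went from r = -0.12 to 0.10 without ADX CT12 replicate 2 and ADX CT24 replicate 2. As deviations from the group means r was -0.08 for Ckm and -0.11 for Cd79a, against 0.23 and 0.09 over 36 libraries. The 3 genes called over the mean of 6 times became 10 with DESeq2, 5 with a mean of at least 1 CPM, 1 without the muscle-high libraries, and 0 without those of high Gh, without those of high Ttr or without those of CT20. The 1 call at a single time became 15 with DESeq2 and 0 without the muscle-high libraries. The 2 genes with a rhythm in sham became 4 with DESeq2, 0 without the filter, 1 with the replicate block and 1 without the muscle-high libraries. The 1 shared rhythm became 2 without the libraries of high Gh. Without the 2 libraries farthest in Bpifa1, r with Foxj1 was 0.32 over all libraries and 0.40 within sham, neither past the threshold. The causes of these changes were not tested. For most of these settings, and for the fits without 1 library below, the share of all genes called is not given. The counts thus show only how the calls depend on the setting, and nothing about the list is read from them.

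Leaving out 1 library gave 0 to 11 calls over the mean, 0 to 10 at a single time, 0 to 5 rhythms in sham, 0 in ADX, 1 to 4 shared, 0 differences in rhythm, and r of Foxj1 with Bpifa1 from 0.37 to 0.52. The median fold change of the 35 stayed between 0.21 and 0.29 over the mean and between 0.62 and 0.96 at CT20. The count over the mean was 11 without ADX CT08 replicate 1, 5 without ADX CT16 replicate 3, sham CT08 replicate 1 or sham CT20 replicate 1, and 1 or 0 without any of 23 others. Those giving 1 were ADX CT04 1, CT12 2 and CT20 2 and sham CT16 2, CT20 2, CT24 1 and CT24 3. Those giving 0 were ADX CT04 3, CT08 3, CT12 3, CT16 1, CT16 2, CT24 1 and CT24 3 and sham CT04 1, CT04 2, CT08 2, CT08 3, CT12 2, CT12 3, CT16 3, CT20 3 and CT24 2. At a single time the count was 10 with ADX CT08 replicate 1 left out, 4 with its replicate 3 left out and 3 without sham CT20 replicate 1. Shared rhythms numbered 4 without ADX CT08 replicate 1 and 2 without ADX CT24 replicate 1. Rhythms in sham numbered 5 without sham CT08 replicate 2, 4 without ADX CT04 replicate 1, ADX CT08 replicate 1 or sham CT16 replicate 2, and 0 without sham CT04 2, CT04 3, CT08 1, CT16 3, CT20 2, CT20 3 or CT24 2.

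Replicate numbers did not pair the samples: same-numbered libraries correlated between -0.23 and 0.18 in their deviations, 3 of 18 pairs above 0.1, and 3 sham libraries lay closest to their own number. With the replicate block Ccno had -0.36 with an adjusted p of 0.0503. Leaving out high-Gh libraries left sham CT08 and ADX CT24 with 1 library each, assumed to vary like the other groups. Depth limits Mcidas (1 to 16 counts) and Gas2l2 (10 to 65 counts) most.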
